A study of Mus musculus with 63 samples.

Results

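Amino acid and peptide transporters of the SLC1, SLC3, SLC6, SLC7, SLC15, SLC36, SLC38 and SLC43 families were followed across mouse small intestinal organoids and intestinal epithelial cells (IECs) with and without the Mediator kinases CDK8 and CDK19. Members were chosen by name and count level. Of 54752 genes in the count tables, 21949 of them protein-coding, 66 protein-coding genes bore a name of these families, and 46 had at least 10 counts in 3 or more libraries of a table. The other 20 fell under that minimum. The kept members were 11 SLC7, 9 SLC6, 9 SLC38, 5 SLC1, 5 SLC15, 3 SLC43, 2 SLC3 and 2 SLC36 genes. Among the least abundant genes kept were Slc38a8 and Slc38a3, each with 14 counts in the third of its libraries by level, and the most abundant genes left out were Slc1a7 and Slc6a18, with 7.

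The study deleted Cdk8 in the intestinal epithelium, on a background with or without Cdk19, and asked what the Mediator kinases do for growth and differentiation. All animals and organoids were C57BL/6 by strain, and 57 libraries in 19 groups of 3 were used. In the time course, VillinCreERT2/Cdk8fl/fl/Cdk19-/- organoids were given 100 nM 4-hydroxytamoxifen (4-OHT) or 0.001% ethanol (EtOH) for 24 h and collected at day 3, 5, 7 or 10. Organoids of the same genotype were treated likewise and grown in Wnt3-conditioned medium (Wnt3-CM) to day 10. By these labels both arms lacked Cdk19, and 4-OHT served to delete Cdk8 in addition. VillinCreERT2/Cdk8fl/fl/Cdk19D173A/- organoids, whose single Cdk19 allele carries the D173A kinase-dead change, were given EtOH or 4-OHT and collected at day 7. Organoids of 5 genotypes, all given 4-OHT and collected at day 7, were VillinCreERT2, C57BL/6, CDK8iIEC-KO (VillinCreERT2/Cdk8fl/fl), Cdk8fl/fl/Cdk19-/- without Cre, and CDK8iIEC-KO/Cdk19-/-. IECs came from VillinCreERT2 and CDK8iIEC-KO/Cdk19-/- mice 14 days after 5 daily injections of tamoxifen at 80 mg/kg. The Villin promoter restricts Cre to the intestinal epithelium. In the EtOH and 4-OHT comparisons the drug, Cre activation and loss of Cdk8 cannot be told apart, and between genotypes a line and its genotype cannot be told apart. No source used here says that the 3 libraries of a group came from separate cultures or animals, so p-values measure the spread between these libraries, which may be technical. Count column names open with a separate number for each IEC library and with a single shared number for each organoid group. Organoid p-values may thus rest on a single line per group.

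Enterocytes take up amino acids and small peptides across the brush border and pass amino acids to the blood across the basolateral membrane. Peptides enter with protons through Slc15a1, neutral amino acids with sodium through Slc6a19, and cystine and basic amino acids through the Slc3a1 and Slc7a9 heteromer, while Slc7a8, Slc7a7 and Slc43a2 serve the basolateral side. Dividing cells rely on another set, among them Slc7a5, Slc1a5, Slc38a1, Slc7a1 and Slc7a11, for leucine, glutamine, arginine and cystine, and several of these genes are targets of the amino acid response, in which the factor ATF4 binds composite C/EBP-ATF elements in promoters. The organoid medium contained glutamine and N-acetylcysteine, a source of cysteine.

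A form of that composite element, the 8 letters TGATGCAA or TTGCATCA on the other strand, was searched on both strands of RefSeq promoter windows of GRCm38.p6, each covering 250 bases before to 50 after a gene start. It was held by 294 of 32851 windows (0.895%). Windows were given for 33 of the 46 members (44 windows), and 3 members held the letters: Slc7a11, Slc1a4 and Slc7a7. Slc7a5, Slc1a5, Slc38a1 and Slc7a2 were among the 13 members without a window. The 3 promoters are shown because the members that hold these letters include genes that moved in opposite directions below. Each run covers 150 bases before to 20 after the start on the minus strand, 5′ to 3′, with the motif in capitals, at chr3:50443594-50443763 for Slc7a11, chr11:20332694-20332863 for Slc1a4 and chr14:54417925-54418094 for Slc7a7.
Slc7a11: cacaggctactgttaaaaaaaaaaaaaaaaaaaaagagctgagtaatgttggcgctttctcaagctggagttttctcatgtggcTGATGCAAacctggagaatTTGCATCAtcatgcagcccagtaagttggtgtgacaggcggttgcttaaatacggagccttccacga
Slc1a4: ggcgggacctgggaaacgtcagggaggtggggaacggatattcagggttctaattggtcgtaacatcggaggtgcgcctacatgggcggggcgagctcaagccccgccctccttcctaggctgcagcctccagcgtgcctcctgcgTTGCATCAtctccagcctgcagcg
Slc7a7: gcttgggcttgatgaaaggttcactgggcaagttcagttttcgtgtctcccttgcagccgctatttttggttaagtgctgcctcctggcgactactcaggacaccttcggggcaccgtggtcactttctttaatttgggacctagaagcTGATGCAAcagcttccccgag
Slc7a11 held 2 copies on opposite strands, and the other two genes 1 each. A match describes the letters and does not show that a factor binds them. In the results that follow, Slc7a11 and Slc1a4 were lower and Slc7a7 higher after 4-OHT at day 10.

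Levels are given as CPM, counts relative to the library total, scaled by TMM within each experiment, and between genes only as CPM per kilobase of exon. In VillinCreERT2 organoids the members with the highest mean level per kilobase were Slc3a1 (95.1 ± 8.404 SD, n = 3), the taurine transporter Slc6a6 (81.4 ± 3.86), Slc6a19 (68.1 ± 5.49), the sodium-coupled glutamine transporter Slc38a2 (48.2 ± 1.10) and Slc3a2 (48.1 ± 1.78), the heavy chain shared by most SLC7 exchangers. Neighbours in this order did not overlap, except Slc38a2 and Slc3a2. In IECs of VillinCreERT2 mice the order was the creatine transporter Slc6a8 (212 ± 13.3), Slc6a19 (170.2 ± 21.4), Slc15a1 (156 ± 18.7), Slc7a8 (128 ± 1.51) and Slc3a2 (125 ± 3.26). Here Slc6a19 overlapped with Slc15a1, and Slc7a8 with Slc3a2. The peptide transporter Slc15a1 was read at 24.5, 26.8 and 29.0 CPM in VillinCreERT2 organoids and at 656, 806 and 821 CPM in IECs of the same genotype, and the exporter Slc43a2 at 70.8, 74.6 and 90.1 and 1067, 1068 and 1074 CPM. Organoids and IECs were counted in separate tables, and no test was made across them. The glutamine exchanger Slc1a5 stood the other way round, at 153, 161 and 169 CPM in the organoids and 42.9, 43.5 and 50.4 CPM in the IECs.

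**Figure D1:**
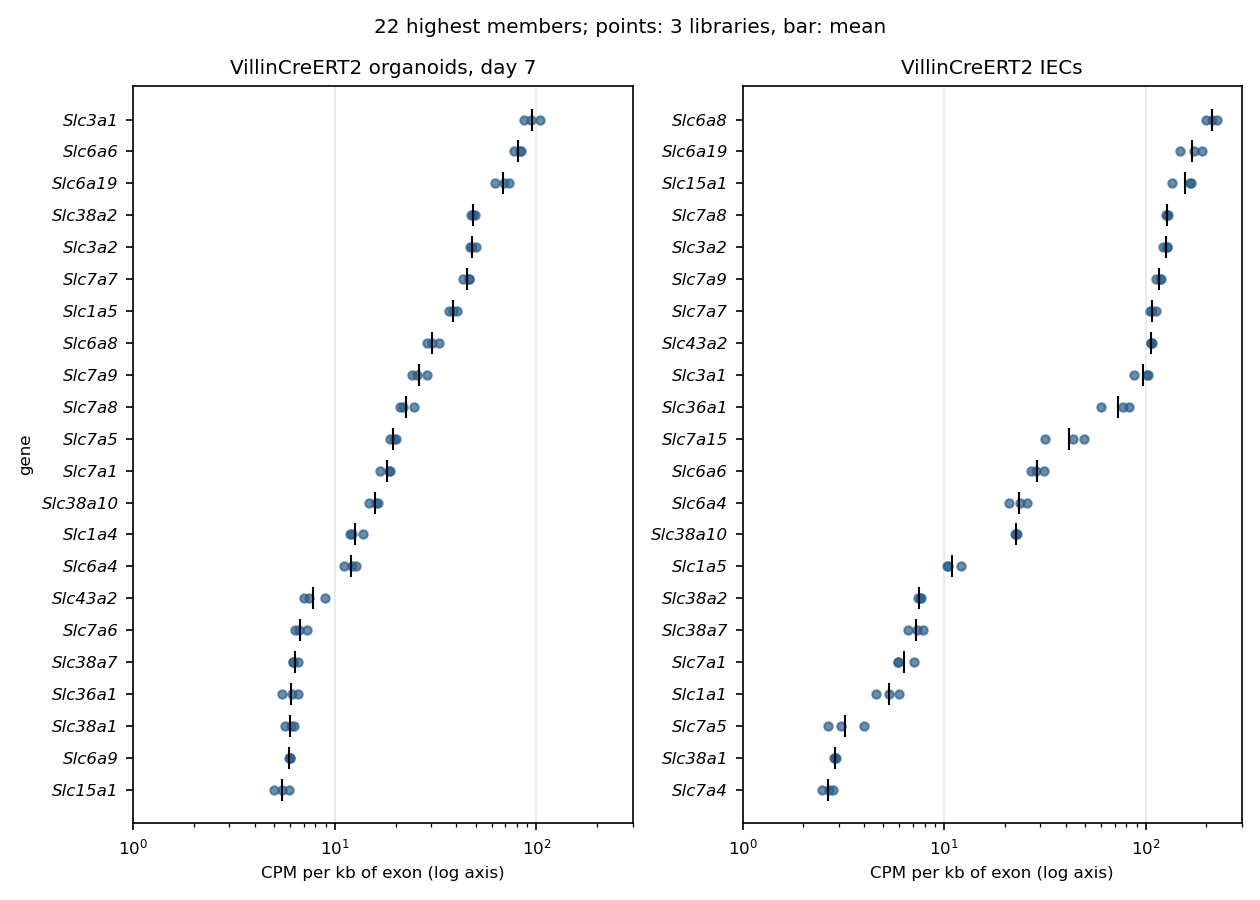
Levels of the 22 most abundant members in VillinCreERT2 organoids (left) and VillinCreERT2 IECs (right), as CPM per kilobase of exon on a log axis. Points are the 3 libraries and the bar is their mean. Slc3a1 leads in organoids at 95.1 and Slc6a8 in IECs at 212, where Slc15a1 comes after Slc6a8 and Slc6a19.

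Totals ran from 15485959 to 32909565 counts per library. Mitochondrial genes took 1.45 to 11.1% of counts. Their share was higher after 4-OHT, without overlap, at day 5 (2.51 to 2.80% in EtOH and 4.59 to 5.57% in 4-OHT), at day 10 (1.5 to 1.6 and 1.63 to 1.96%) and in Wnt3-CM (1.45 to 1.56 and 1.61 to 2.43%), and its part in those results was not tested. Cdk8 was read at 78.0 to 83.1 CPM in CDK8iIEC-KO, 65.1 to 67.2 CPM in CDK8iIEC-KO/Cdk19-/- and 71.9 to 80.8 CPM in VillinCreERT2 organoids, and at 53.3 to 57.5 CPM after 4-OHT and 53.9 to 57.1 CPM in EtOH at day 10. Cdk19 was read at 27.6 to 27.8 CPM in CDK8iIEC-KO/Cdk19-/- and 27.2 to 29.1 CPM in VillinCreERT2 organoids, at 24.7 to 26.0 CPM in Cdk8fl/fl/Cdk19-/- and 28.8 to 34.5 CPM in C57BL/6 organoids, and at 35.3 to 59.99 CPM in the time course. Both genes were thus still counted in the groups labelled as deleted. The count of a whole gene does not check the deletion of part of it, and groups are named here by their labels. The paper reports that tamoxifen removed CDK8 from IECs in RNA and protein, and from organoids by qRT-PCR and immunoblot. Summed levels of 13 marker lists were compared in each comparison. The enterocyte and proximal small intestine lists share Fabp1 and Lct, so they are not separate readings. No enterocyte marker was at 0 in any group, and the immune markers summed to at most 1.61 CPM in organoids. Summed enteroendocrine markers were 2.21 to 7.87 CPM in the time course and Wnt3-CM organoids against 214 to 791 CPM in the other organoids, so organoids labelled VillinCreERT2/Cdk8fl/fl/Cdk19-/- differed between the time course and the 5-genotype experiment, where the column names also open with different numbers. Fewer cells of a type and less RNA per cell cannot be told apart in bulk RNA.

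A member was called changed where edgeR's quasi-likelihood test gave a Benjamini-Hochberg adjusted p under 0.05 over all genes of the fit and the fold change exceeded 1.5, the cutoffs used in the study. Of the 46 members, 36 were tested in the time course. After 4-OHT, 3 of them were higher and 6 lower at day 3, where 6.42% of all genes tested were called higher and 5.95% lower. At day 5, where the mitochondrial share was raised as given above, 9 were higher and 5 lower (8.58% and 4.62% of all genes). Day 7 gave 8 higher and 6 lower (9.00% and 9.25%), and day 10 gave 9 higher and 8 lower (8.86% and 6.92%). In all, 25 members were called at 1 or more days, 16 at 2 or more, and 3 at all 4 days. Those 3 were Slc7a11, Slc7a9 and Slc6a3. Slc7a8, Slc43a2, Slc7a9, Slc38a9 and Slc7a15 were higher at days 5, 7 and 10 alike, and Slc7a5, Slc7a11, Slc7a2 and Slc6a3 lower at these 3 days. Slc7a11, Slc38a1, Slc7a9, Slc6a4 and Slc6a7 were called higher at one day and lower at another.

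**Figure D2:**
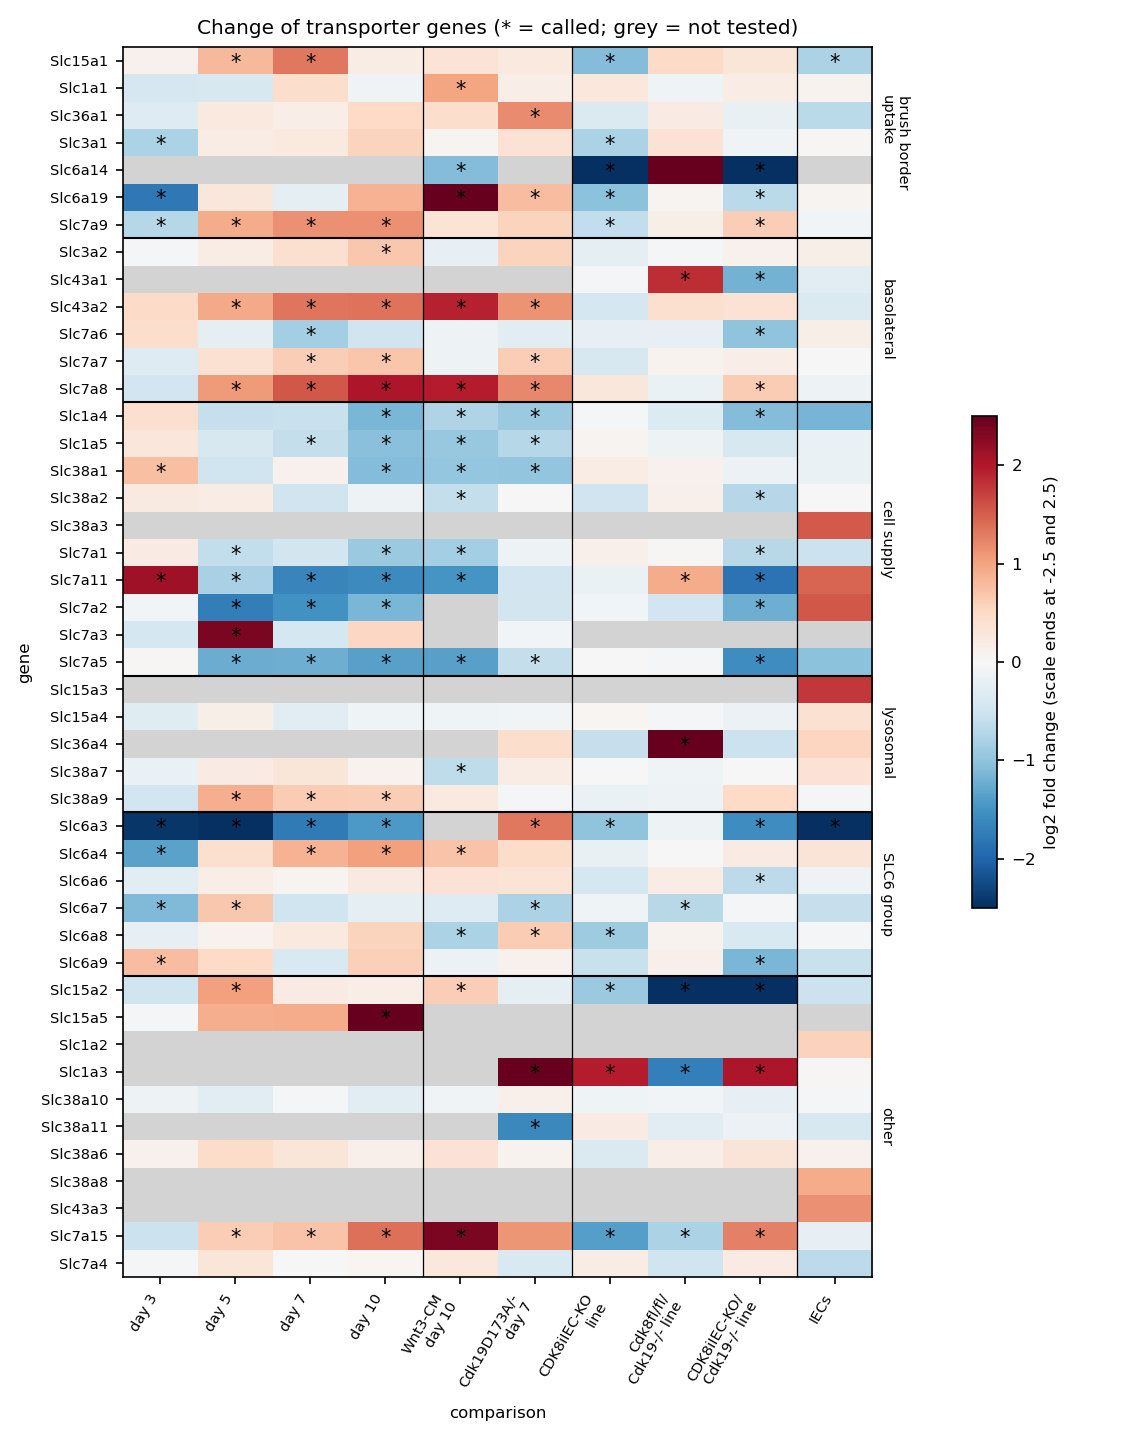
Log2 fold change of members (vertical axis, grouped by role) in the comparisons of groups (horizontal axis), in red where higher and blue where lower, with an asterisk where called and grey where not tested. In the cell supply block 8 of 9 tested members are blue at day 10, Slc7a3 being the exception at 0.53, and all 7 tested in Wnt3-CM are blue, Slc7a8 turns from blue to red at day 5, and Slc43a2 is red from day 3 and called from day 5.

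Role groups and the gene lists used below were chosen with earlier results of these data known. Counts within them describe these data and are no independent test. The cell supply set, the transporters that feed growing cells, had the role group median farthest from 0 at day 10. There, 7 of its 9 tested members were lower and none higher (6.92% and 8.86% of all genes), with a median log2 fold change of -1.08 against 0.02 over all genes. At day 3 the same set held 2 members that were higher and none that was lower, at days 5 and 7 it held 4 that were lower, and at day 5 Slc7a3 was higher. Proliferation markers moved with the set, at 907 to 977 summed CPM in EtOH and 540 to 562 in 4-OHT at day 10, 735 to 867 and 376 to 551 at day 7, 699 to 833 and 424 to 537 at day 5, and 652 to 719 and 782 to 832 at day 3. Markers of stem cells (3090 to 3340 and 1590 to 1810), Paneth cells (8140 to 8330 and 2140 to 2530), goblet cells (3590 to 3920 and 2140 to 2390), tuft cells (4.36 to 5.83 and 1.12 to 1.27) and colon (148 to 179 and 89.6 to 117) were lower after 4-OHT at day 10 too. The first 4 of these were also lower without overlap at days 5 and 7, and stem cell markers were higher at day 3 (1870 to 1880 and 2260 to 2340). The part of these cells in the result was not tested.

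Slc7a5, the light chain of the exchanger that brings in leucine and other large neutral amino acids, was read at day 3 at 55.4, 58.9 and 63.5 CPM in EtOH and 56.96, 61.9 and 63.6 CPM in 4-OHT. The libraries overlapped. At day 10 it was read at 89.4, 115 and 125 CPM in EtOH and 39.0, 44.2 and 44.9 CPM in 4-OHT (log2 fold change -1.36 ± 0.18, adjusted p = 4.46e-06). EtOH libraries had risen from day 3 (0.89 ± 0.17, adjusted p = 0.00017), and all 4-OHT libraries lay below all EtOH libraries of that day. At day 5 it was read at 61.0, 78.1 and 92.1 CPM in EtOH and 24.7, 31.4 and 42.3 CPM in 4-OHT (log2 fold change -1.23 ± 0.18, adjusted p = 3.70e-05), and at day 7 the difference was -1.22.

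Slc7a11, the light chain of the exchanger that imports cystine for glutamate, moved in opposite directions early and late. At day 3 it was read at 4.43, 6.43 and 7.34 CPM in EtOH and 23.9, 27.7 and 28.2 CPM in 4-OHT, 4.37-fold higher after 4-OHT (log2 fold change 2.13 ± 0.29, adjusted p = 1.54e-05). By day 10 the EtOH libraries stood at 36.7, 40.1 and 43.7 CPM and the 4-OHT libraries at 12.7, 12.9 and 14.5 CPM, 3.00-fold lower (log2 fold change -1.58 ± 0.26, adjusted p = 7.70e-05). The 2 groups did not overlap on either day. At day 7 the difference was -1.64 ± 0.28 (adjusted p = 9.28e-05). At day 5 it was -0.81 ± 0.28 (adjusted p = 0.0287), with 1 EtOH library at 27.8 CPM and the other two at 12.9 and 13.0, and that call ended without EtOH library 3 (-0.35), 4-OHT library 1 (-0.73) or 4-OHT library 2 (-0.78), with no filter on low counts (-0.82) or in a fit of the compared groups alone (-0.81). The change of the response from day 3 to day 10, tested as an interaction, was -3.71 ± 0.39 (adjusted p = 4.57e-07).

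Glutamine and small neutral amino acids enter through Slc1a5, Slc1a4 and Slc38a1. Slc1a5 at day 10 was read at 200.3, 229 and 235 CPM in EtOH and 106, 108 and 109 CPM in 4-OHT (log2 fold change -1.04 ± 0.07, adjusted p = 3.24e-12). At day 7 the call of Slc1a5 (-0.60) ended without EtOH library 3 (-0.57) or 4-OHT library 1 (-0.54). Slc1a4, which prefers alanine, serine and cysteine, was read at 136, 155 and 165 CPM in EtOH and 64.8, 69.9 and 70.9 CPM in 4-OHT (log2 fold change -1.15 ± 0.09, adjusted p = 8.37e-11). Neither gene's groups overlapped at day 10. Slc38a1 was higher after 4-OHT at day 3, at 149, 152 and 161 against 246, 251 and 285 CPM (log2 fold change 0.76 ± 0.11, adjusted p = 1.15e-05), and lower at day 10, at 85.8, 104 and 115 against 45.1, 48.2 and 50.2 CPM (log2 fold change -1.08 ± 0.12, adjusted p = 1.11e-07). Its relative Slc38a2 gave 0.22 at day 3 and -0.12 at day 10 and was called at none of the 4 days.

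The basic amino acid transporter Slc7a1 was read at day 10 at 183, 199 and 213 CPM in EtOH and 97.9, 106 and 111 CPM in 4-OHT (log2 fold change -0.92 ± 0.07, adjusted p = 1.66e-11). All 4-OHT libraries were lower. At day 5 the difference was -0.62, and that call ended without EtOH library 3 (-0.54). Slc7a2, a second basic amino acid transporter with at most 29 counts in any library here, was lower at day 5 (-1.73), day 7 (-1.52) and day 10 (-1.14). Its call at day 7 ended without 4-OHT library 1 (-1.05), and its call at day 10 without EtOH library 1 (-1.17), EtOH library 3 (-1.01), 4-OHT library 1 (-1.01) or 4-OHT library 3 (-1.07) or with limma-voom (-1.12). Slc7a3, of the same kind and with at most 29 counts, was higher at day 5 alone (2.36 ± 0.58, adjusted p = 0.00186).

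On the basolateral side, 4 of 5 tested members were higher at day 10 and none lower (8.86% and 6.92% of all genes), with a median log2 fold change of 0.695 against 0.02 over all genes, and at day 3 no member was called. Summed enterocyte markers were 6460 to 7590 CPM in EtOH and 7920 to 9160 CPM in 4-OHT at day 10, 7450 to 9200 and 9130 to 10600 at day 7, and 6880 to 9690 and 6710 to 6830 at day 5. The sum was therefore higher after 4-OHT at day 10, overlapped at day 7 and was lower at day 5. Distal small intestine markers were higher after 4-OHT at day 10 (70.2 to 73.4 and 134 to 155) and day 7 (110 to 117 and 233 to 255). Pancreatic acinar markers were higher after 4-OHT at day 10 (11.9 to 13 and 45.8 to 54.4). They were also higher at day 7 (12.7 to 17.5 and 28.5 to 34) and day 5 (13.1 to 21.6 and 23.8 to 30.7). In each of these groups 4 of the 6 acinar genes were at 0. The mitochondrial share was higher at days 5 and 10, and the part of these measures in the rises of this set and of Slc7a9 was not tested. Slc7a8 pairs with Slc3a2 and exchanges neutral amino acids with the blood. Its EtOH libraries at day 10 gave 33.3, 34.7 and 36.1 CPM and its 4-OHT libraries 128, 129 and 163 CPM, a 4.04-fold difference (log2 fold change 2.01 ± 0.10, adjusted p = 9.00e-15). At day 7 they gave 71.4, 72.5 and 81.6 and 191, 220.0 and 249.8 CPM (log2 fold change 1.55 ± 0.09, adjusted p = 7.22e-13), and at day 5 79.7, 86.5 and 91.8 and 172, 181 and 184 CPM (log2 fold change 1.06 ± 0.09, adjusted p = 1.90e-09). At day 3 the 4-OHT libraries were the lower ones, at 46.5, 46.5 and 56.4 against 68.2, 69.3 and 71.1 CPM, a difference of -0.48 that did not reach the fold cutoff. The EtOH libraries themselves fell from day 3 to day 10 (-1.00 ± 0.10, adjusted p = 1.01e-09).

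Slc43a2, which lets leucine, phenylalanine and methionine leave the cell, was read at 46.2, 47.0 and 49.2 CPM in EtOH and 119, 119 and 129 CPM in 4-OHT at day 10 (log2 fold change 1.37 ± 0.07, adjusted p = 1.18e-14). It was higher at day 5 (0.94) and day 7 (1.33) too, without overlap of the groups. Slc7a7, which exports basic amino acids and is 1 of the 3 members with the motif shown above, was read at 124, 125 and 135 and 188, 208 and 226 CPM (log2 fold change 0.69 ± 0.08, adjusted p = 1.39e-08). Its call at day 7 ended without EtOH library 2 (0.58), EtOH library 3 (0.56) or 4-OHT library 1 (0.54). The shared heavy chain Slc3a2 was read at 193, 199 and 208 and 282, 309 and 363 CPM at day 10 (log2 fold change 0.67 ± 0.07, adjusted p = 1.89e-08), a call that ended without 4-OHT library 1 (0.56). Slc7a6, the close relative of Slc7a7, went the other way and was lower at day 7, at 27.4, 27.4 and 27.7 against 13.9, 15.2 and 16.7 CPM (log2 fold change -0.85 ± 0.09, adjusted p = 1.35e-08).

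Of 6 tested brush border members, 3 were lower and none higher at day 3 (5.95% and 6.42% of all genes), with a median of -0.56 against -0.02 over all genes. The other three did not pass, with Slc15a1 at 0.11, Slc1a1 at -0.41 and Slc36a1 at -0.31. At day 5, 7 and 10 no brush border member was lower. Slc6a19, the main neutral amino acid transporter of the villus, was read at 23.6, 25.2 and 29.2 CPM in EtOH and 5.69, 8.10 and 8.82 CPM in 4-OHT at day 3 (log2 fold change -1.79 ± 0.45, adjusted p = 0.00547). Slc3a1 at day 3 was read at 78.1, 80.5 and 84.6 and 44.4, 45.6 and 51.5 CPM (log2 fold change -0.78 ± 0.11, adjusted p = 3.70e-06). Its partner Slc7a9 was read at 48.6, 49.9 and 52.0 and 28.4, 29.7 and 33.7 CPM (log2 fold change -0.71 ± 0.08, adjusted p = 3.08e-08). In all 3 genes the groups stood apart. Summed enterocyte markers were 5410 to 5840 CPM in EtOH and 2290 to 2660 CPM in 4-OHT at that day. Markers of the proximal (530 to 588 and 288 to 318) and distal small intestine (123 to 135 and 77.6 to 92.3) and of tuft cells (18.9 to 22.4 and 9.99 to 13.6) were lower with them, and their part in the result was not tested.

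From day 5 Slc7a9 was higher after 4-OHT, and at day 10 it was read at 55.9, 57.04 and 57.6 CPM in EtOH and 121, 123 and 135 CPM in 4-OHT (log2 fold change 1.15 ± 0.08, adjusted p = 4.63e-13). Its subunit partner Slc3a1 gave 0.57 at day 10 and was not called (83.8, 89.2 and 100.2 against 122, 128 and 155 CPM). Slc15a1, the peptide transporter, was higher at day 5 (0.82 ± 0.21, adjusted p = 0.00349) and day 7, at 5.24, 6.13 and 6.75 against 12.5, 14.7 and 17.9 CPM (log2 fold change 1.32 ± 0.19, adjusted p = 2.65e-06). At day 10 its groups overlapped (3.83, 7.10 and 7.89 against 6.70, 7.30 and 7.43 CPM). Slc6a19 at day 10 was read at 83.8, 92.7 and 156 and 162, 196 and 249 CPM (log2 fold change 0.87 ± 0.35, adjusted p = 0.0517) and was not called, though no 4-OHT library lay below an EtOH library. The peptide transporter Slc15a2 was higher at day 5 alone (1.02 ± 0.15, adjusted p = 3.97e-06). The glutamate transporter Slc1a1 and the proton-coupled transporter Slc36a1 were called at none of the 4 days.

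Among lysosomal members, Slc38a9, the arginine sensor of mTORC1, was higher at day 5 (0.91 ± 0.12, adjusted p = 1.66e-06), day 7 (0.63) and day 10 (0.61). Its call at day 7 ended without EtOH library 3 (0.53) or 4-OHT library 1 (0.55), and at day 10 without EtOH library 2 (0.55) or 4-OHT library 1 (0.55). Slc38a7, the lysosomal glutamine exporter, and Slc15a4, which moves histidine and peptides, were not called at any day of the time course.

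In the SLC6 set, the serotonin transporter Slc6a4 was lower at day 3, at 49.5, 51.9 and 57.2 CPM in EtOH against 18.0, 21.0 and 23.4 CPM in 4-OHT (log2 fold change -1.35 ± 0.11, adjusted p = 8.57e-11), and higher at day 10, at 31.1, 36.1 and 36.7 against 63.3, 73.4 and 74.5 CPM (log2 fold change 1.02 ± 0.10, adjusted p = 3.78e-09). The order of the groups had turned round without overlap on either day. The dopamine transporter Slc6a3 was rare, with at most 53 counts in a library, and lower at every day, by -2.42, -3.41, -1.78 and -1.43 on the log2 scale. At day 10 its libraries read 2.22, 2.49 and 2.57 CPM in EtOH and 0.619, 0.633 and 1.44 CPM in 4-OHT. Slc6a6 and Slc6a8, which carry taurine and creatine, were not called at any day (Slc6a8 gave 0.55 and Slc6a6 0.23 at day 10). The proline transporter Slc6a7 was lower at day 3 (-1.10 ± 0.19, adjusted p = 8.72e-05) and higher at day 5 (0.66 ± 0.23, adjusted p = 0.0234), where its groups overlapped and the call ended without EtOH library 2 (0.44), 4-OHT library 1 (0.55) or 4-OHT library 2 (0.56). The glycine transporter Slc6a9 was higher at day 3 (0.76 ± 0.28, adjusted p = 0.0447), and that call ended without EtOH library 1 (0.76), EtOH library 2 (0.73), EtOH library 3 (0.82), 4-OHT library 1 (0.83), 4-OHT library 2 (0.74) or 4-OHT library 3 (0.74), with no filter on low counts (0.76) or with limma-voom (0.76).

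Outside these roles, Slc7a15 was higher at day 5 (0.62), day 7 (0.70) and day 10 (1.38 ± 0.20, adjusted p = 1.57e-06). At day 10 it was read at 2.79, 3.29 and 3.83 CPM in EtOH and 8.41, 8.60 and 8.79 CPM in 4-OHT, without overlap. Its day 5 call ended without EtOH library 3 (0.53), 4-OHT library 1 (0.58) or 4-OHT library 3 (0.55), and its day 7 call without EtOH library 3 (0.46) or 4-OHT library 2 (0.53). Slc15a5, with at most 24 counts, was higher at day 10 (2.49 ± 0.53, adjusted p = 0.000271).

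**Figure D3:**
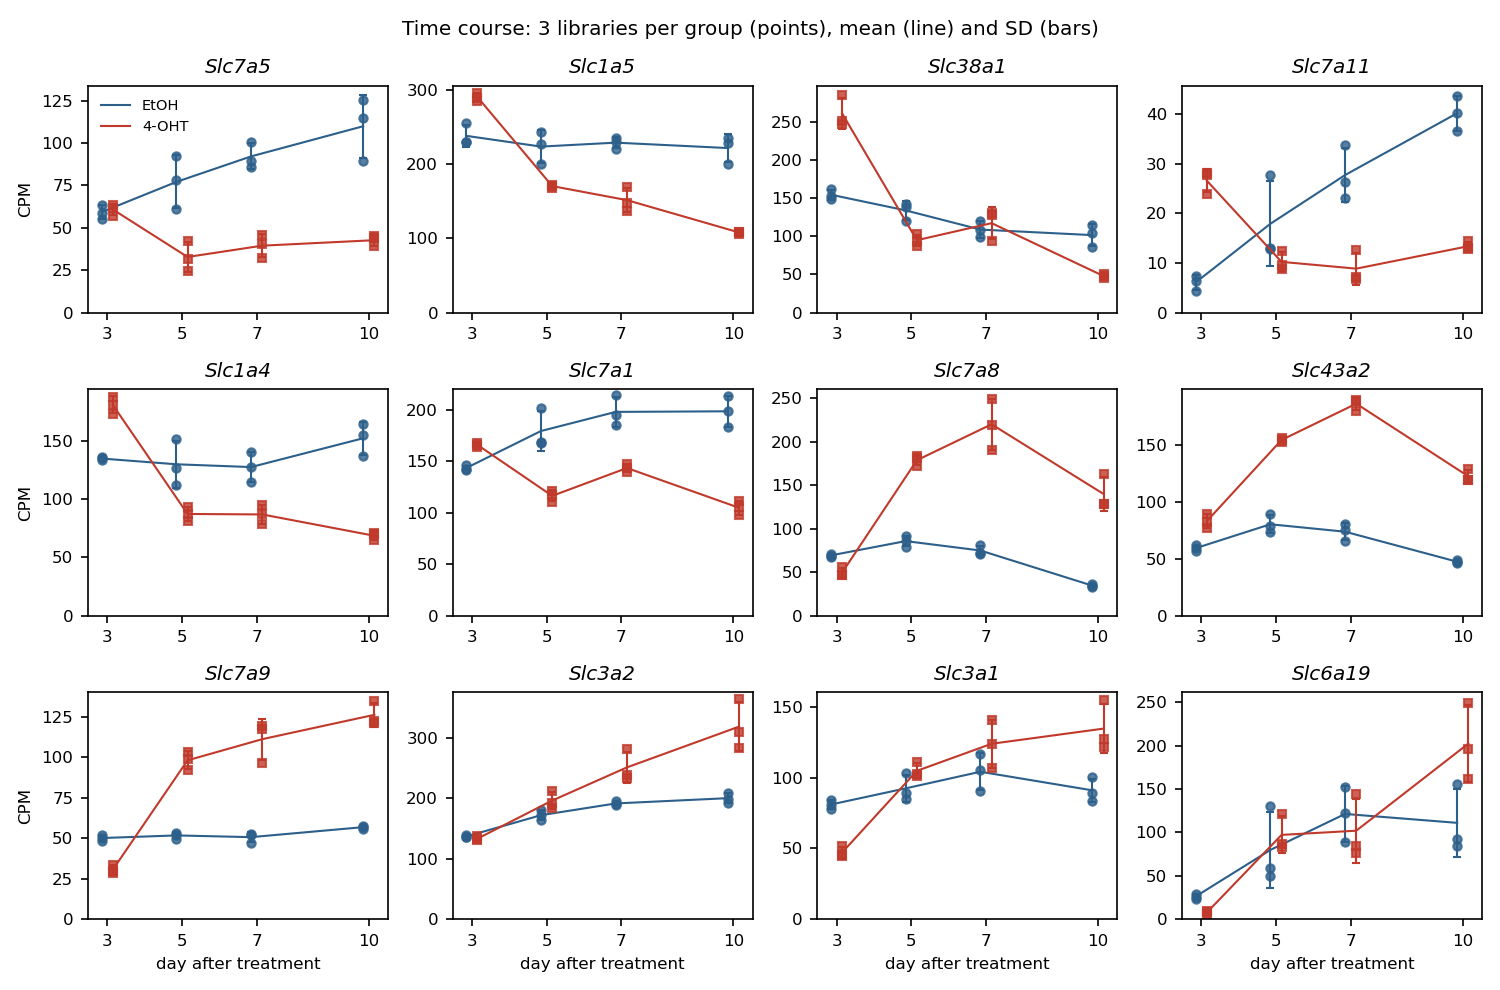
CPM against day of collection for EtOH (circles) and 4-OHT (squares) in the time course, with 3 libraries as points, means joined by lines and SD as bars. Slc7a11 lies above EtOH at day 3 and below it at day 10, whereas Slc7a8 and Slc7a9 cross the other way.

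The vehicle libraries drifted as well. From day 3 to day 10 in EtOH, 8 of 36 members were higher and 9 lower, where 16.0% of all genes were called higher and 22.4% lower. In the same libraries 7 of the 13 marker lists were higher at day 10 and 4 lower without overlap, and the mitochondrial share was 3.92 to 5.39% at day 3 and 1.5 to 1.6% at day 10. Their part in the drift was not tested. Slc7a11 (2.72 ± 0.29, adjusted p = 1.65e-07) and Slc6a19 (2.09 ± 0.38, adjusted p = 0.000117) were among the higher members, and Slc6a7 was the member that fell most, from 19.3, 27.6 and 32.3 to 2.95, 3.25 and 3.84 CPM (-2.98 ± 0.23, adjusted p = 4.70e-11). The same drift contains the call of Slc38a1 (-0.61), which ended without day 10 EtOH library 1 (-0.49), that of Slc38a2 (0.67), which ended without day 10 EtOH library 1 (0.53), and that of Slc6a4 (-0.61), which ended without day 3 EtOH library 1 (-0.57) or day 10 EtOH library 1 (-0.53). Slc6a9 (1.76), Slc6a3 (1.59) and Slc7a6 (0.88) were higher too, and Slc1a1 (-0.97), Slc38a9 (-0.93) and Slc15a2 (-0.83) lower. The calls of Slc15a4 (0.61), which ended without day 3 EtOH library 2 (0.57) or day 3 EtOH library 3 (0.55), where 10 counts were needed in each library (0.52) or with upper quartile normalization (0.52), and Slc7a15 (-0.67), which ended without day 10 EtOH library 3 (-0.56), belong to the same drift.

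The response to 4-OHT itself changed between day 3 and day 10 in 22 of 36 members by the interaction test, 15 upward and 7 downward, where 26.3% of all genes were called in either direction. Among transporters with a lower response at day 10 were 6 of the 9 cell supply members, and among those with a higher response 4 of 6 brush border and 4 of 5 basolateral members. Slc38a1 (-1.84 ± 0.16, adjusted p = 4.17e-09), Slc1a4 (-1.57 ± 0.13, adjusted p = 9.53e-11), Slc7a5 (-1.40), Slc1a5 (-1.32) and Slc7a1 (-1.13) moved down with Slc7a11. Slc6a19 (2.65 ± 0.57, adjusted p = 0.00108), Slc7a8 (2.49 ± 0.14, adjusted p = 5.28e-14), Slc7a9 (1.86), Slc3a1 (1.35), Slc7a7 (1.02) and Slc43a2 (0.88) moved up. Slc7a6 was the basolateral member that moved down (-0.94). At day 3 the groups of Slc1a4 were 133, 135 and 136 CPM in EtOH and 173.1, 181 and 188 CPM in 4-OHT, and of Slc1a5 229, 229 and 255 and 285, 289 and 295 CPM, so both stood higher after 4-OHT without reaching the fold cutoff.

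Genes that act with these transporters were read from 3 lists, beside which 5.95%, 4.62%, 9.25% and 6.92% of all genes were called lower and 6.42%, 8.58%, 9.00% and 8.86% higher at days 3, 5, 7 and 10. Of the amino acid response list (ATF4 targets with serine and proline synthesis), 6 of 23 tested genes were higher and none lower at day 3, 11 were lower and none higher at day 5, 8 were lower and none higher at day 7, and 11 were lower and 1 higher at day 10 (median -0.57 against 0.02 over all genes). Asns, asparagine synthetase, went from 0.75 ± 0.17 (adjusted p = 0.00216) at day 3 to -1.07 ± 0.17 (adjusted p = 5.69e-05) at day 10. Pycr1, the last step of proline synthesis, went from 0.71 to -1.72, and Psat1, of serine synthesis, from 0.68 to -1.08. The gene that was higher at day 10 was the serine synthesis phosphatase Psph (0.70). In the list of peptide digestion and transporter partners, 5 of 12 were lower and none higher at day 3, and 8 were higher and 1 lower at day 10 (median 0.76). The meprin Mep1a (1.88 ± 0.09, adjusted p = 3.84e-15) and the peptidases Dpp4 (1.11) and Anpep (0.98) were among the higher genes, and Ggt1 was the lower one (-0.98). Of the glutathione and cystine list, 2 of 12 were higher (Nqo1 and Srxn1) and 1 lower (Hmox1) at day 10, the latter close to the share of all genes.

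In Wnt3-CM, 32 members were tested, and after 4-OHT 7 were higher and 10 lower, where 9.45% of all genes were called higher and 7.42% lower. All 7 tested cell supply members were lower (median -0.95). Proliferation markers were 565 to 592 summed CPM in EtOH and 573 to 650 in 4-OHT, with overlap, and stem cell markers 1060 to 1210 and 1090 to 1330. Paneth cell markers were 6850 to 7570 in EtOH and 1890 to 2320 in 4-OHT, goblet cell markers 2630 to 3190 and 1750 to 1820, tuft cell markers 18 to 21.8 and 1.94 to 2.43, and distal small intestine markers 191 to 217 and 139 to 153, all lower after 4-OHT. Enteroendocrine (4.74 to 5.4 and 5.64 to 7.8) and pancreatic acinar markers (0.579 to 1.68 and 9.48 to 16.7) were higher. Of the 6 acinar genes, 4 were at 0 in both groups. The mitochondrial share was 1.45 to 1.56% and 1.61 to 2.43%. Their part in the result was not tested. Slc7a5 was read at 179, 202 and 205 CPM in EtOH and 70.7, 78.6 and 78.8 CPM in 4-OHT (log2 fold change -1.36 ± 0.07, adjusted p = 1.45e-12). Slc7a11 was read at 99.8, 109.8 and 119 and 38.1, 40.2 and 40.8 CPM (log2 fold change -1.47 ± 0.08, adjusted p = 9.47e-13). Slc38a1 gave -0.96 ± 0.07 (adjusted p = 1.31e-10), Slc1a5 -0.95, Slc7a1 -0.86 and Slc1a4 -0.76, all without overlap. The seventh, Slc38a2 (-0.59), was a call that ended without EtOH library 1 (-0.51), 4-OHT library 2 (-0.52) or 4-OHT library 3 (-0.49), where 10 counts were needed in each library (-0.58) or with upper quartile normalization (-0.55). The amino acid response list had 18 of 23 genes lower and none higher, among them Ddit3 (-2.30) and Trib3 (-1.87).

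Slc6a19 had the largest rise of the members called in this medium. It was read at 6.43, 6.45 and 16.0 CPM in EtOH and 73.9, 82.9 and 135 CPM in 4-OHT, 10.1-fold higher (log2 fold change 3.33 ± 0.49, adjusted p = 0.00564), and the response was larger than in standard medium by 2.46 ± 0.59 (adjusted p = 0.0142) in a test of the difference. Summed enterocyte markers overlapped, at 6570 to 7780 CPM in EtOH and 7020 to 7450 CPM in 4-OHT. Proximal small intestine markers were higher after 4-OHT, at 286 to 345 and 670 to 813 CPM, and their part in the rise of Slc6a19 was not tested. Slc7a8 was read at 13.4, 15.2 and 16.5 and 51.2, 59.2 and 65.7 CPM (log2 fold change 1.97 ± 0.10, adjusted p = 5.54e-12) and Slc43a2 at 23.9, 25.5 and 30.2 and 91.4, 102 and 109.5 CPM (log2 fold change 1.93 ± 0.09, adjusted p = 1.44e-12). Slc1a1, the glutamate transporter, rose from 14.5, 16.9 and 17.3 to 30.1, 30.8 and 35.3 CPM (log2 fold change 0.98 ± 0.09, adjusted p = 2.10e-08). Slc7a15 (2.35), Slc6a4 (0.71) and Slc15a2 (0.61) were the others, the last a call that ended without 4-OHT library 3 (0.46). Of 5 basolateral members 2 were higher and none lower in this medium, with a median of -0.12. Peptide digestion genes were higher in 8 of 12 cases and lower in none, with Anpep at 2.70 and the imino acid transporter Slc6a20a at 2.30.

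The creatine transporter Slc6a8 fell in Wnt3-CM, from 321, 321 and 345 to 169, 197 and 208 CPM (log2 fold change -0.78 ± 0.07, adjusted p = 2.56e-08), and so did Slc38a7 (-0.63), a call that ended without 4-OHT library 3 (-0.56). Slc6a14 with at most 29 counts was called lower (-1.07) with overlapping groups, and that call ended without EtOH library 2 (-0.81), 4-OHT library 1 (-0.79) or 4-OHT library 2 (-0.94) or with DESeq2 (-1.09). Of the 31 members tested in both media, 8 were higher and 6 lower at day 10 in standard medium, and 7 were higher and 9 lower in Wnt3-CM. The 2 media shared 4 higher members (4 of 8 and 4 of 7) and 6 lower members (6 of 6 and 6 of 9). Over the 13660 genes tested in both, the shared calls were 45.8% of the higher genes of standard medium and 43.5% of those of Wnt3-CM, and 35.5% and 36.7% of the lower genes. No member was called in opposite directions.

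**Figure D4:**
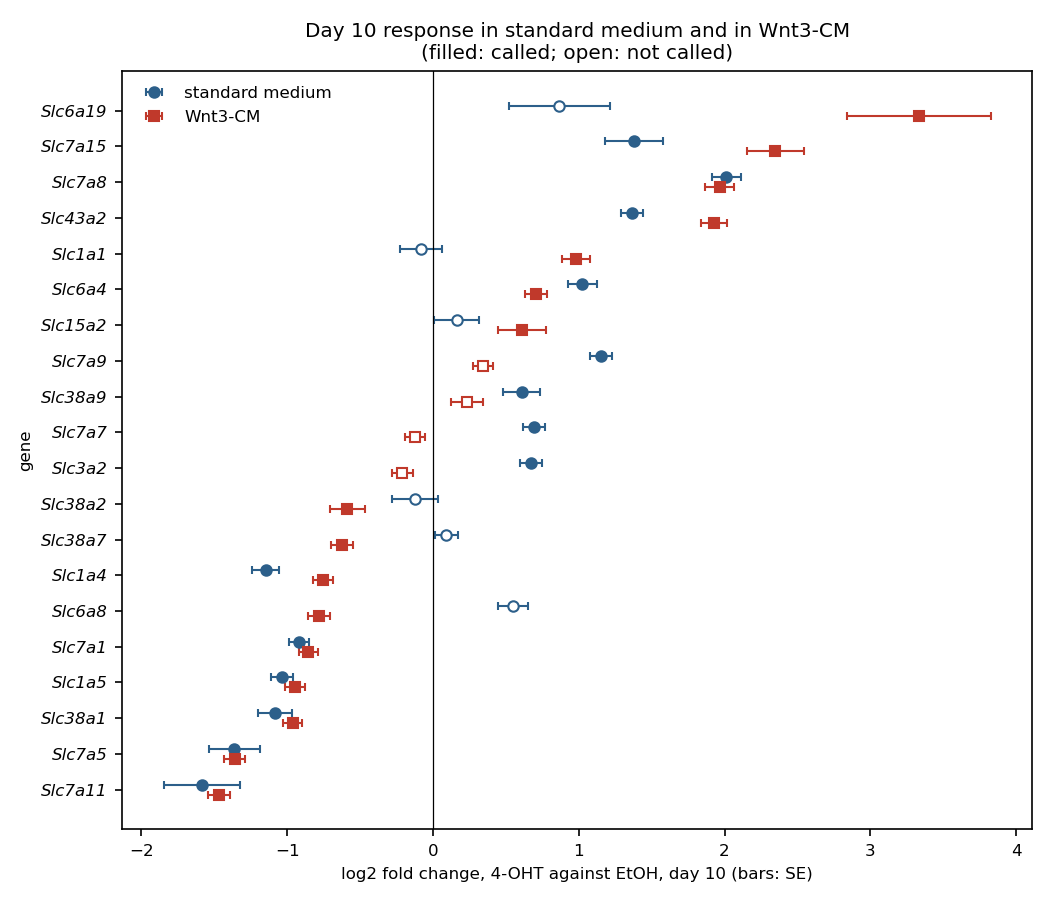
Log2 fold change after 4-OHT at day 10 in standard medium (circles) and in Wnt3-CM (squares), with SE as bars, for the members called in at least 1 medium and tested in both. Filled symbols are called. Slc7a5 lies at -1.36 in both media, and Slc6a19 at 0.87 and 3.33.

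The difference between the responses in the 2 media was called in 9 of 35 members, 3 upward and 6 downward, where 13.3% of all genes were called in either direction. No cell supply member was among them, while 6 of 23 genes of the amino acid response list had a lower response in Wnt3-CM and none a higher one. The responses of Slc7a5 differed by -0.000407 ± 0.16 (SE) and those of Slc7a11 by 0.12 ± 0.12 (SE). Slc6a8 (-1.33 ± 0.14, adjusted p = 1.50e-06), Slc3a2 (-0.88 ± 0.12, adjusted p = 1.09e-05), Slc7a7 (-0.82) and Slc7a9 (-0.81) had a lower response in Wnt3-CM. In that medium Slc7a9 was read at 104, 119 and 121 CPM in EtOH and 143, 144 and 151 CPM in 4-OHT. Slc1a1 (1.06 ± 0.18, adjusted p = 0.000249) and Slc7a15 (0.97) had a higher one. The call of Slc6a14 (-2.30) ended without Wnt3-CM EtOH library 2 (-2.03), Wnt3-CM EtOH library 3 (-2.35), Wnt3-CM 4-OHT library 1 (-2.01), Wnt3-CM 4-OHT library 2 (-2.17), time course EtOH library 1 (-1.93), time course EtOH library 2 (-1.96), time course 4-OHT library 1 (-2.05) or time course 4-OHT library 3 (-2.22). The media were counted in separate tables, and the medium and the table cannot be told apart in levels, whereas each response is a difference within a table.

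In organoids with kinase-dead Cdk19, 37 members were tested, and 4-OHT left 8 higher and 6 lower at day 7, where 6.05% of all genes were called higher and 6.25% lower. Slc7a8 was read at 150.3, 153 and 165 CPM in EtOH and 349, 356 and 363 CPM in 4-OHT (log2 fold change 1.19 ± 0.06, adjusted p = 9.40e-07). Slc43a2 was read at 74.0, 88.8 and 92.0 and 161, 192 and 204 CPM (log2 fold change 1.13 ± 0.11, adjusted p = 7.70e-05) and Slc36a1, the proton-coupled transporter of glycine, alanine and proline, at 44.2, 51.1 and 53.4 and 101, 114 and 124 CPM (log2 fold change 1.19 ± 0.09, adjusted p = 1.38e-05). All 4-OHT libraries of these 3 genes exceeded all EtOH libraries. Slc6a19 (0.77 ± 0.10, adjusted p = 0.000607) and Slc7a7 (0.62) were higher too. The call of Slc7a7 ended without EtOH library 2 (0.58), EtOH library 3 (0.58) or 4-OHT library 3 (0.57) or with upper quartile normalization (0.57), and that of Slc6a8 (0.64) ended without EtOH library 2 (0.56). Summed enterocyte markers were 13900 to 14800 CPM in EtOH and 18500 to 21400 CPM in 4-OHT, and proximal small intestine markers 1720 to 1920 and 2670 to 3890. Pancreatic acinar markers were 31.7 to 38.6 and 143 to 166, with 4 of the 6 genes at 0 in both groups. Their part was not tested.

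Of 9 cell supply members, 4 were lower and none higher in these organoids. Summed markers of proliferation (560 to 627 CPM in EtOH and 407 to 494 in 4-OHT), stem cells (782 to 890 and 424 to 474), Paneth cells (3310 to 3530 and 1690 to 2000), tuft cells (40.2 to 44.1 and 9.30 to 12.1) and enteroendocrine cells (730 to 791 and 317 to 335) were lower with them, and their part was not tested. Slc38a1 was read at 47.7, 54.9 and 58.7 CPM in EtOH and 26.3, 26.9 and 28.5 CPM in 4-OHT (log2 fold change -0.98 ± 0.09, adjusted p = 3.41e-05), Slc1a4 at 46.6, 52.3 and 52.9 and 24.4, 26.9 and 29.0 CPM (log2 fold change -0.92 ± 0.09, adjusted p = 5.06e-05), and Slc1a5 at 156, 161 and 163 and 92.2, 94.3 and 107 CPM (log2 fold change -0.71 ± 0.07, adjusted p = 6.70e-05). The groups of each stood apart. Slc7a5 was lower by less, at 29.1, 29.9 and 30.5 and 18.0, 20.2 and 21.2 CPM (log2 fold change -0.59 ± 0.09, adjusted p = 0.000684), and that call ended without 4-OHT library 2 (-0.52). Slc7a11 was rare here (2.90, 3.65 and 4.24 against 1.48, 2.17 and 4.08 CPM) and was not called (-0.47). Slc1a3, a glutamate transporter, was close to absent in EtOH, with 1, 2 and 5 counts, and reached 3.02, 3.497 and 5.19 CPM after 4-OHT (log2 fold change 5.39 ± 0.41, adjusted p = 1.09e-05). Slc38a11 (-1.62) and Slc6a7 (-0.80) were lower. Of the amino acid response list 2 of 24 genes were lower (Pycr1 at -0.78 and Vldlr at -1.29) and 1 higher (Cth at 1.06), shares close to those of all genes, with a median of -0.21. Of the peptide digestion list 2 of 12 were higher and none lower. The dopamine transporter Slc6a3 was higher (1.32 ± 0.29, adjusted p = 0.0121), a call that ended without EtOH library 3 (1.26).

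Set beside day 7 of the time course, which shares no library with these organoids, 3 of the 8 members higher there and 3 of the 7 higher here were the same genes (Slc7a8, Slc43a2 and Slc7a7), counting the 34 members tested in both. Of the lower members, 2 of 6 there and 2 of 5 here were the same (Slc7a5 and Slc1a5), and Slc6a3 was called in opposite directions. Over the 14522 genes tested in both, the shared calls were 20% of the higher genes there and 37.6% of those here, and 20.1% and 31.7% of the lower genes. The difference between the responses was called in 5 of 38 members, 3 upward and 2 downward, where 11.1% of all genes were called in either direction. Slc6a3 (3.09 ± 0.44, adjusted p = 0.000217) and Slc36a1 (1.02 ± 0.14, adjusted p = 0.00013) had the higher response with kinase-dead Cdk19. Slc38a1 (-1.09 ± 0.16, adjusted p = 0.000369) and Slc38a9 (-0.69) had the lower one. The response of Slc7a5 was weaker there, by 0.63, and this call ended without kinase-dead 4-OHT library 1 (0.58), time course EtOH library 3 (0.56) or time course 4-OHT library 2 (0.50). The experiments differ in line and table as well as in the Cdk19 allele, and these cannot be told apart. In the amino acid response list, 6 of 24 genes had a higher response with kinase-dead Cdk19 and 1 a lower one. The serine synthesis enzymes Psat1 (1.16 ± 0.28, adjusted p = 0.0149) and Phgdh (1.24) were among the 6.

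The 5-genotype experiment compared organoids given the same 4-OHT. With 38 members tested, the controls already differed between themselves. C57BL/6 organoids had 4 members higher and 15 lower than VillinCreERT2 organoids, where 15.5% of all genes were called higher and 10.9% lower. Slc7a11 was read at 16.4, 18.1 and 18.3 CPM in VillinCreERT2 and 1.86, 3.75 and 3.87 CPM in C57BL/6 (log2 fold change -2.48 ± 0.16, adjusted p = 5.42e-12). Slc6a19 was read at 311, 346 and 366 and 104, 109 and 119 CPM (log2 fold change -1.62 ± 0.12, adjusted p = 4.85e-08), Slc38a2 at 416, 426 and 436 and 193, 199 and 217 CPM (log2 fold change -1.07 ± 0.08, adjusted p = 4.71e-10) and Slc7a5 at 70.03, 72.9 and 74.3 and 37.2, 41.7 and 45.0 CPM (log2 fold change -0.81 ± 0.07, adjusted p = 2.13e-10). Slc1a3 went the other way, at 4.37, 6.79 and 7.598 and 49.6, 51.5 and 56.4 CPM (log2 fold change 3.07 ± 0.19, adjusted p = 4.44e-09). The other higher members were Slc6a7 (2.00), Slc7a15 (0.90) and Slc1a1 (0.82), and lower ones included Slc43a1 (-1.50), Slc6a9 (-1.48), Slc6a6 (-1.17), Slc3a1 (-1.15), Slc6a3 (-1.15), Slc15a1 (-1.13) and Slc7a6 (-0.81). Slc6a8 (-0.66) and Slc43a2 (-0.60) were lower too, the call of the first ending with upper quartile normalization (-0.58) and that of the second without C57BL/6 library 1 (-0.58) or VillinCreERT2 library 2 (-0.49) or with upper quartile normalization (-0.51). Both kinase genes are intact in these 2 controls by their labels. Of the 13 marker lists 6 were higher and 3 lower in C57BL/6 without overlap. Paneth cell markers were 2780 to 2900 CPM in VillinCreERT2 and 4950 to 6140 in C57BL/6, enteroendocrine markers 326 to 333 and 657 to 712, distal small intestine markers 255 to 577 and 66.6 to 85, goblet cell markers 3350 to 3490 and 2360 to 2540, and enterocyte markers 12300 to 14800 and 11400 to 12200. The mitochondrial share was 3.67 to 5.13% and 6.42 to 6.57%. The part of these measures in the differences was not tested.

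Relative to VillinCreERT2, CDK8iIEC-KO organoids had 1 member higher and 9 lower (2.90% and 4.34% of all genes), and 5 of the 9 were brush border members. Slc6a19 was read at 149, 177 and 178 CPM (log2 fold change -1.02 ± 0.12, adjusted p = 2.22e-05), Slc15a1 at 11.4, 11.5 and 14.7 CPM (log2 fold change -1.09 ± 0.13, adjusted p = 5.43e-06) and Slc3a1 at 119, 126 and 128 CPM (log2 fold change -0.80 ± 0.06, adjusted p = 8.91e-10). In VillinCreERT2 organoids Slc3a1 was read at 198, 214 and 236 CPM, and no library of these 3 genes overlapped. Summed enterocyte markers were 12300 to 14800 CPM in VillinCreERT2 and 8640 to 10000 CPM in CDK8iIEC-KO. Markers of goblet cells (3350 to 3490 and 2320 to 2510), Paneth cells (2780 to 2900 and 2440 to 2640), tuft cells (16.8 to 18.4 and 14.1 to 14.3) and the distal small intestine (255 to 577 and 76.1 to 97.3) were lower in CDK8iIEC-KO. Those of proliferation (739 to 796 and 892 to 1010), mesenchyme (4.37 to 5.6 and 5.77 to 7.15) and pancreatic acini (17.4 to 28.4 and 41 to 46) were higher. Of the 6 acinar genes, 4 were at 0 in both groups, so the acinar sum does not show acinar cells. The part of these measures was not tested. Against the mean of both control lines the calls of Slc6a19 (-1.02 became -0.21), Slc3a1 (-0.22), Slc15a1 (-0.53), Slc6a8 (-0.55), Slc6a3 (-0.42), Slc6a14 and Slc1a3 (0.42) ended, Slc1a3 being the member that was higher (1.96). The call of Slc7a9 (-0.61) ended without VillinCreERT2 library 2 (-0.55). Slc7a15 was lower in CDK8iIEC-KO, at 3.13, 3.70 and 4.51 CPM in VillinCreERT2 and 1.28, 1.40 and 1.67 CPM (log2 fold change -1.38 ± 0.19, adjusted p = 4.11e-06), and so was Slc15a2 (-0.92 ± 0.13, adjusted p = 1.20e-05). Both calls were kept under all alternatives tried. Of 13 peptide digestion genes 6 were lower and none higher (median -0.55 against 0.02 over all genes), among them the aminopeptidase Enpep (-0.97) and the dipeptidase Dpep1 (-1.19), and 1 of 24 genes of the amino acid response list was lower (Trib3). No cell supply member was called, and Slc7a5 was read at 71.5, 71.8 and 73.9 CPM, with a difference from VillinCreERT2 of -0.000757 ± 0.07 (SE).

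Cdk8fl/fl/Cdk19-/- organoids, labelled as lacking CDK19 alone, had 3 members higher and 4 lower than C57BL/6 (2.86% and 2.39% of all genes). Loss of CDK19 and the line cannot be told apart here. Slc15a2 was read at 10.6, 12.1 and 14.7 CPM in C57BL/6 and 1.57, 1.85 and 2.12 CPM in Cdk8fl/fl/Cdk19-/- (log2 fold change -2.74 ± 0.16, adjusted p = 3.51e-12), Slc1a3 at 49.6, 51.5 and 56.4 and 11.5, 16.8 and 19.8 CPM (log2 fold change -1.71 ± 0.17, adjusted p = 6.56e-06) and Slc7a11 at 1.86, 3.75 and 3.87 and 5.53, 5.79 and 6.71 CPM (log2 fold change 0.93 ± 0.19, adjusted p = 0.00113). All groups stood apart. Slc43a1, a relative of Slc43a2 with at most 31 counts, was higher (1.85 ± 0.42, adjusted p = 0.00312), and Slc7a15 was lower, at 6.41, 7.33 and 7.33 and 3.43, 4.05 and 4.70 CPM (log2 fold change -0.79 ± 0.15, adjusted p = 0.000628). Slc6a7 was lower (-0.68), a call that ended without Cdk8fl/fl/Cdk19-/- library 3 (-0.58). Slc36a4 had 3 counts in all in C57BL/6 organoids and 96 in Cdk8fl/fl/Cdk19-/-, a ratio of 30.9 with a 95% interval of 10.3 to 152 that covers counting error only. No brush border member was called in this comparison. Of the 13 marker lists 2 were higher and 7 lower in Cdk8fl/fl/Cdk19-/- without overlap, among them Paneth cell markers (4950 to 6140 and 3960 to 4340), stem cell markers (1250 to 1310 and 773 to 916) and distal small intestine markers (66.6 to 85 and 171 to 200), and their part was not tested.

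CDK8iIEC-KO/Cdk19-/- organoids had 4 members higher and 14 lower than VillinCreERT2 (11.5% and 7.95% of all genes). Of 8 cell supply members 6 were lower and none higher. Summed stem cell markers were 1180 to 1410 CPM in VillinCreERT2 and 425 to 579 in CDK8iIEC-KO/Cdk19-/-, Paneth cell markers 2780 to 2900 and 854 to 890, goblet cell markers 3350 to 3490 and 2040 to 2260, tuft cell markers 16.8 to 18.4 and 3.03 to 4.12, enteroendocrine markers 326 to 333 and 214 to 228, distal small intestine markers 255 to 577 and 120 to 175, proximal small intestine markers 2080 to 2710 and 3420 to 3600, and proliferation markers 739 to 796 and 684 to 780, the last with overlap. Immune (0.0949 to 0.432 and 1.07 to 1.61) and pancreatic acinar markers (17.4 to 28.4 and 33.5 to 44.2) were higher without overlap. Of the 6 acinar genes, 4 were at 0 in both groups. Mesenchyme markers were lower (4.37 to 5.6 and 3.53 to 4.06). The mitochondrial share was 3.67 to 5.13% and 5.96 to 6.23%. Their part was not tested. Slc7a5 was read at 24.1, 25.0 and 25.5 CPM against 70.03, 72.9 and 74.3 CPM (log2 fold change -1.54 ± 0.07, adjusted p = 3.10e-15), Slc7a11 at 3.86, 4.82 and 5.98 against 16.4, 18.1 and 18.3 CPM (log2 fold change -1.85 ± 0.15, adjusted p = 2.95e-10) and Slc1a4 at 23.0, 23.5 and 23.9 against 46.6, 47.9 and 54.0 CPM (log2 fold change -1.08 ± 0.07, adjusted p = 4.94e-12). Against the mean of both control lines the difference of Slc7a11 was -0.61, still a call. Slc7a2 (-1.22) was lower likewise. The other two, Slc7a1 (-0.69) and Slc38a2 (-0.72), were no longer called against the mean of both control lines (-0.49 and -0.18). Slc1a5 (-0.39) and Slc38a1 (-0.15) were not called. The amino acid response list had 13 of 24 genes lower and 2 higher (Vldlr and Aldh18a1), and in the comparison of the controls, which uses the same VillinCreERT2 libraries, 11 were lower in C57BL/6 and none higher. The peptide digestion list had 1 of 13 genes higher (Dpp4 at 0.62) and 3 lower (median -0.20), and 3 were lower and none higher in C57BL/6.

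Of 6 basolateral members 1 was higher and 2 lower in CDK8iIEC-KO/Cdk19-/- organoids. The lower ones were Slc7a6, at 28.9, 30.2 and 33.3 CPM in VillinCreERT2 and 13.6, 15.6 and 16.8 CPM (log2 fold change -1.01 ± 0.09, adjusted p = 1.43e-09), and Slc43a1 (-1.18 ± 0.41, adjusted p = 0.0168), whose call ended without CDK8iIEC-KO/Cdk19-/- library 3 (-0.99), VillinCreERT2 library 1 (-0.97) or VillinCreERT2 library 2 (-0.96) or against the mean of both control lines (-0.43). In the SLC6 set Slc6a3 (-1.56 ± 0.18, adjusted p = 5.65e-08) was lower, and so were Slc6a9 (-1.15) and Slc6a6 (-0.65), whose calls ended against the mean of both control lines (-0.41 and -0.07). The higher members in these organoids were Slc7a8 (0.63 ± 0.06, adjusted p = 5.26e-09), Slc7a9 (0.62 ± 0.07, adjusted p = 1.99e-08), Slc7a15 (1.25) and Slc1a3 (2.02). Slc7a15 was read at 7.85, 9.30 and 9.88 CPM and gave 0.80 against the mean of both control lines, opposite in sign to its differences in CDK8iIEC-KO and Cdk8fl/fl/Cdk19-/-. The call of Slc1a3 ended against the mean of both control lines (0.49). The call of Slc7a8 ended without VillinCreERT2 library 1 (0.58) or against the mean of both control lines (0.49), and that of Slc7a9 without VillinCreERT2 library 1 (0.56) or against the mean of both control lines (0.57). Slc6a19 was lower than in VillinCreERT2 (-0.67) but gave 0.14 against the mean of both controls. Slc15a2, which takes up peptides with high affinity, had 0 counts in all 3 CDK8iIEC-KO/Cdk19-/- libraries against 8.498, 9.59 and 9.595 CPM in VillinCreERT2, at least 55.3-fold lower with 3 counts per library as the floor. In the time course and Wnt3-CM organoids, of the same genotype by their labels, Slc15a2 had 79 to 238 counts in each of the 30 libraries.

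Further members were present in some organoids and at or near 0 in others. Slc6a14 had 38, 123 and 303 counts in the VillinCreERT2 libraries, 0 in all CDK8iIEC-KO libraries (at least 54.0-fold lower with the floor of 3 counts per library) and 1 count in all in C57BL/6. The VillinCreERT2 libraries themselves ranged from 1.90 to 14.5 CPM, and without the highest of them, library 2, the bound was 28.2-fold. The calls of Slc6a14 in CDK8iIEC-KO and in CDK8iIEC-KO/Cdk19-/- ended against the mean of both control lines and in a fit of the compared groups alone. Slc36a4 had 207 counts in VillinCreERT2 and 3 in C57BL/6, a ratio of 56.3 with a counting interval of 19.0 to 275, and 9 counts over the 30 time course and Wnt3-CM libraries. Slc1a3 and Slc38a11 had 0 counts in all of those 30 libraries, while Slc1a3 had 91 to 907 counts and Slc38a11 7 to 20 in each of the 15 libraries of the 5-genotype experiment.

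**Figure D5:**
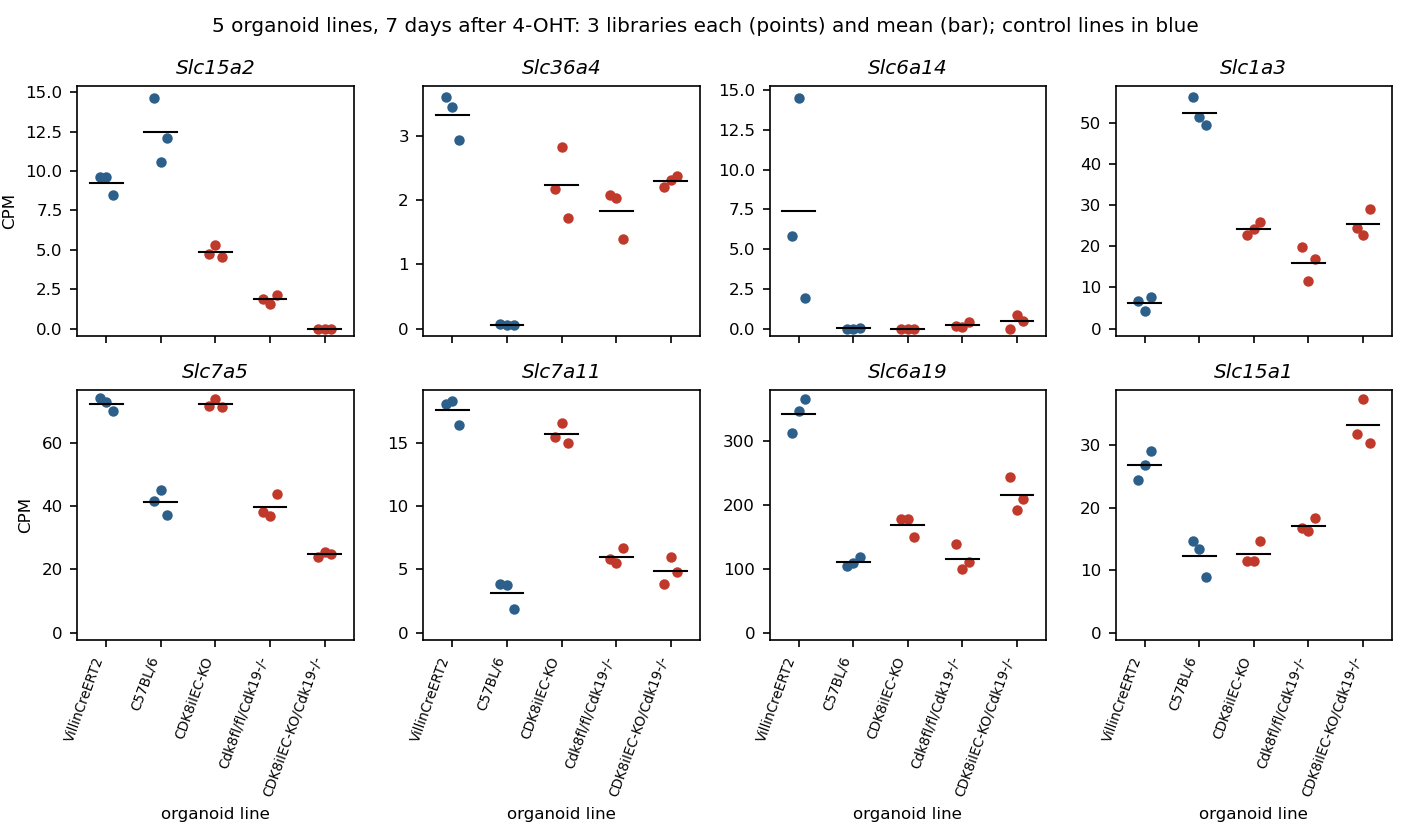
CPM of members in the 5 organoid genotypes 7 days after 4-OHT, with 3 libraries as points and the mean as a bar, control lines in blue. Slc15a2 is at 0 in CDK8iIEC-KO/Cdk19-/-, Slc36a4 is near 0 in C57BL/6, and Slc6a14 is spread from 1.90 to 14.5 CPM among the VillinCreERT2 libraries.

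In IECs taken from mice, 42 members were tested, none was higher and 2 were lower in CDK8iIEC-KO/Cdk19-/-, where 0.646% of all genes were called higher and 0.856% lower. Slc15a1 was read at 656, 806 and 821 CPM in VillinCreERT2 and 384, 459 and 473 CPM in CDK8iIEC-KO/Cdk19-/- IECs (log2 fold change -0.79 ± 0.14, adjusted p = 0.0453), without overlap. Slc6a3 had 36, 39 and 59 counts in VillinCreERT2 and 3, 3 and 6 in CDK8iIEC-KO/Cdk19-/- (log2 fold change -3.55 ± 0.42, adjusted p = 0.02). Both calls ended without CDK8iIEC-KO/Cdk19-/- library 1 (-0.71 and -3.40) or library 3 (-0.83 and -3.94), without VillinCreERT2 library 1 (-0.74 and -3.29) or library 3 (-0.74 and -3.64), and with the replicate block (-0.79 and -3.55). The block pairs libraries by number, and the lowest correlation of such a pair was -0.394 here, so it does not weigh on the calls. At an unadjusted p under 0.05, 8 of the 42 members differed, and so did 19.9% of all genes. Of the 13 marker lists 5 were lower in CDK8iIEC-KO/Cdk19-/- IECs without overlap, at 4860 to 5360 CPM in VillinCreERT2 and 3310 to 4400 CPM for the proximal small intestine, 4070 to 6050 and 1240 to 2250 for Paneth cells, 12300 to 14700 and 5110 to 7350 for goblet cells, 745 to 1040 and 311 to 512 for stem cells, and 93.5 to 125 and 25.8 to 44.8 for tuft cells. Enterocyte markers overlapped, at 29200 to 30300 and 27200 to 35700. The part of these cells in the IEC values was not tested.

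The members that led the organoid comparisons were read in IECs as follows. Slc7a5 stood at 9.82, 11.5 and 14.8 CPM in VillinCreERT2 and 4.08, 5.45 and 8.26 CPM in CDK8iIEC-KO/Cdk19-/- (log2 fold change -1.02 ± 0.28, adjusted p = 0.132). Slc1a4 stood at 4.62, 7.24 and 8.45 and 2.01, 3.40 and 3.63 CPM (log2 fold change -1.17 ± 0.32, adjusted p = 0.126). In both genes every CDK8iIEC-KO/Cdk19-/- library was below every VillinCreERT2 library, and neither passed the test. Slc7a8 gave -0.13, Slc6a19 0.07 and Slc7a9 -0.06, with overlapping groups. Of the accompanying lists, none of 23 amino acid response genes was called by edgeR (7 had an unadjusted p under 0.05) and 1 of 12 peptide digestion genes was lower. Slc43a2 stood at 1067, 1068 and 1074 and 580.3, 887 and 1031 CPM (log2 fold change -0.36 ± 0.20, adjusted p = 0.362) and Slc36a1 at 339, 432 and 465 and 176, 244 and 355 CPM (log2 fold change -0.67 ± 0.26, adjusted p = 0.225). In Slc43a2 the spread lay in the CDK8iIEC-KO/Cdk19-/- libraries, and in Slc36a1 in both groups.

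Markers of non-epithelial cells were read in the IEC libraries. Summed mesenchyme markers were 12.8, 54.9 and 881 CPM in VillinCreERT2 and 453, 600 and 963 CPM in CDK8iIEC-KO/Cdk19-/-, immune markers 2070 to 3600 and 1740 to 2630 CPM, and pancreatic acinar markers 0.428 to 5.44 and 5.89 to 66.4 CPM. The acinar list also summed to 143 to 166 CPM in Cdk19D173A/- organoids given 4-OHT, where 4 of its 6 genes were at 0. None of the markers of the first 2 lists was at 0 in either group. Slc15a3, which had 1 count in the time course and Wnt3-CM libraries together, was read at 0.219, 0.695 and 7.07 CPM in VillinCreERT2 and 4.37, 7.30 and 15.6 CPM in CDK8iIEC-KO/Cdk19-/- IECs, Slc43a3 at 1.39, 1.98 and 5.87 and 5.59, 6.09 and 8.75 CPM, and Slc7a2 at 1.65, 3.69 and 13.5 and 5.75, 20.1 and 29.2 CPM. In each gene 1 VillinCreERT2 library stood far above the other two. The part of other cells in these values was not tested.

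Across the 15 comparisons, 8 members were never called, namely Slc15a3, Slc1a2, Slc38a10, Slc38a3, Slc38a6, Slc38a8, Slc43a3 and Slc7a4. Slc15a3, Slc1a2, Slc38a3, Slc38a8 and Slc43a3 were tested in IECs alone, so most of the tables could not show a change in them. Slc38a10, Slc38a6 and Slc7a4 were tested in all 15, and at day 10 of the time course gave -0.28, 0.13 and 0.04. Some exons of members overlap genes on the opposite strand in GENCODE vM21, and no source used here gives the strand setting of the counting, so reads of a member and of its antisense partner cannot be told apart there. Slc3a1 (chr17:85028376-85064236, plus strand) shares 601 exon bases of 2271 with Prepl, Slc43a2 922 of 10042 with Gm45606, and Slc7a7 232 of 3315 with Oxa1l, in exons pooled over all transcripts of the GRCm38 annotation.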

How the data were processed

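RNA was sequenced as 100 bp paired end reads from organoids and IECs. The authors deposited raw counts of reads per gene, 1 column for each library, and the submitters' processing notes name STAR 2.5.2, featureCounts of Subread 1.6.3 and the mm10 build. The annotation release, filters and strand setting are not given in the sources used here. Of 63 samples, 57 had a column that their labels identify. The other 6 count columns, which the labels do not tie to a sample, were not used. The columns of the Wnt3-CM organoids were tied to their groups by the letters in their names. Those of the Cdk19D173A/- organoids were tied to EtOH and 4-OHT by such letters and to the line by elimination, as the one line left with both treatments. Neither carries a replicate number tied to the labels.

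Each experiment was fitted on its whole table with all its groups, using edgeR 4.0.16 in R 4.3.3 (filterByExpr, TMM normalization, robust quasi-likelihood F test), and p-values were adjusted by the Benjamini-Hochberg method over all genes of the fit. Calls required a fold change over 1.5 with an adjusted p under 0.05. Differences between responses in separate tables were interaction terms of a joint fit. The fits were also run on simulated counts with known changes, whose outcome is not given here. Those counts were drawn independently for each library and hold no differences between lines or cell types. The alternatives were no filter or a minimum of 10 counts in every library, upper quartile normalization, DESeq2 1.42.0, limma-voom 3.58.1, a replicate block, a fit of the compared groups alone, the 2 control lines averaged as one control, and leaving out each library in turn.

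Gene positions and exon lengths came from GENCODE vM21 (GRCm38), and promoter windows from RefSeq. The interval of a ratio of low counts is an exact binomial one at 95% and, like the floor of 3 counts, covers counting error only. Named genes were the main intestinal and cell supply transporters, any member called in a comparison, members whose response differed between settings, and the 5 most abundant members per kilobase. Values per library were given for the first of these and for up to 5 called members with the largest change among those averaging at least 50 counts. Slc38a5, on the first list, was below the count minimum. Genes of the accompanying lists were named by the same rule. The members, roles, lists and tests were chosen with earlier results of these data known. 1 member and 1 gene of an accompanying list are counted in the totals but are not reported here.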

Additional observations from a re-analysis of the deposited data

Results flagged for a closer look

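Members stood out because their response to 4-OHT differed between 2 settings by the interaction test. Values are differences of log2 fold changes, and adjusted p comes from edgeR over all genes. Between day 3 and day 10 of the time course the response was higher at day 10 in 15 members, namely Slc6a19 (2.65), Slc15a5 (2.51), Slc7a8 (2.49), Slc6a4 (2.37), Slc7a15 (1.91), Slc7a9 (1.86), Slc3a1 (1.35), Slc38a9 (1.09), Slc7a7 (1.02), Slc43a2 (0.88), Slc6a7 (0.87), Slc36a1 (0.82), Slc6a8 (0.75), Slc3a2 (0.71) and Slc15a2 (0.66). It was lower in 7, namely Slc7a11 (-3.71), Slc38a1 (-1.84), Slc1a4 (-1.57), Slc7a5 (-1.40), Slc1a5 (-1.32), Slc7a1 (-1.13) and Slc7a6 (-0.94). Adjusted p ran from 4.67e-14 to 0.0396 over the 22 members.

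Between Wnt3-CM and standard medium at day 10, the response was higher in Wnt3-CM for Slc6a19 (2.46), Slc1a1 (1.06) and Slc7a15 (0.97), and lower for Slc6a14 (-2.30), Slc6a8 (-1.33), Slc3a2 (-0.88), Slc7a7 (-0.82), Slc7a9 (-0.81) and Slc38a7 (-0.72), with adjusted p from 1.50e-06 to 0.0436. Between organoids with kinase-dead Cdk19 and those without Cdk19 at day 7, it was higher with the kinase-dead allele for Slc6a3 (3.09), Slc36a1 (1.02) and Slc7a5 (0.63), and lower for Slc38a1 (-1.09) and Slc38a9 (-0.69), with adjusted p from 0.00013 to 0.0088. Medium or allele and count table cannot be told apart in the last 2 comparisons.

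From day 3 to day 10, the difference of Slc15a5 was not called without day 3 EtOH library 1 (1.97) or day 10 EtOH library 1 (2.08), and that of Slc15a2 not without day 3 EtOH library 2 (0.58), day 10 EtOH library 2 (0.50) or day 10 4-OHT library 2 (0.58). The difference of Slc6a7 was not called without day 3 EtOH library 2 (0.69), day 3 EtOH library 3 (0.83), day 3 4-OHT library 1 (0.82), day 3 4-OHT library 3 (0.81), day 10 EtOH library 1 (0.79), day 10 EtOH library 3 (0.85), day 10 4-OHT library 2 (0.86) or day 10 4-OHT library 3 (0.75), with upper quartile normalization (0.82) or with limma-voom (0.84). Slc15a5 had 1 to 24 counts in the time course libraries.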

How the results depend on the processing

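Of 194 calls of members over the 15 comparisons, 139 kept their direction and their side of the thresholds under every alternative, 40 were lost or reversed when 1 library was left out, and 29 under another alternative. Averaging the 2 control lines ended or reversed 17 of the 28 calls it could touch, and the other settings with all libraries ended 1 to 6 calls each. It turned the direction of Slc6a19 (0.14) and Slc6a14 (0.0279) in CDK8iIEC-KO/Cdk19-/- organoids and in CDK8iIEC-KO kept 3 of 10 calls and added 3, which gave 6 called members. Requiring 10 counts in every library left 4 of 7 members for Cdk8fl/fl/Cdk19-/- against C57BL/6, where fewer genes were tested.

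In IECs, 2 members were called, against 6 with no filter on low counts, 1 with at least 10 counts in every library, 5 with DESeq2 and 0 to 6 when 1 library was left out. Over all genes, leaving out 1 IEC library gave 3 to 1566 calls. For the Cdk19D173A/- response minus the Cdk19-/- response, 5 members were called, against 9 with no filter, 8 with DESeq2 and 4 to 8 with 1 library left out. The causes were not tested.

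With 1 library left out, the time course gave 8 to 9 members at day 3, 11 to 16 at day 5, 11 to 17 at day 7 and 14 to 20 at day 10. The replicate block gave 9, 14, 14 and 18 members at these days, where the fit without it gave 9, 14, 14 and 17. In IECs the replicate block gave 0 members. The numbers were taken as pairs only where the correlation of every same-numbered pair exceeded 0.1. The lowest was at most 0.0904 in every comparison, although some pairs lay above 0.1 (up to 0.416, at day 10). No block was fitted for the Wnt3-CM and Cdk19D173A/- organoids, whose columns carry no number tied to the labels, or for the joint fits. Libraries of a group differed by more than counting noise, with a chi-square per gene of 2.43 to 74.3 between them. Depth limits Slc7a3, Slc15a5, Slc6a14 and Slc6a3 in the time course, which had few counts.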
